A study of Mus musculus with 16 samples.

Results

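The genes described here are 8 members of the interleukin-1 (IL-1) family system: the agonists Il1a and Il1b, the receptor antagonist Il1rn, the receptor chains Il1r1, Il1r2 and Il1rap, and Il18 with its binding protein Il18bp. They were taken by gene symbol from a table of 20200 genes, in which each of the 8 was found. The libraries came from wild-type (WT) male C57BL/6 mice (C57BL/6J in the methods) aged 12 weeks, all of which had undergone anterior cruciate ligament reconstruction (ACLR), in which a tendon graft is drawn through tunnels in femur and tibia. Live CD45+ cells of the tissue at the interface of graft and bone were sorted 1 or 14 days after surgery. CD9+ macrophages were Ly6G- CD11b+ F4/80+ CD9+, CX3CR1+ macrophages were Ly6G- CD11b+ F4/80+ CX3CR1+ CD9-, F4/80- myeloid cells were Ly6G- CD11b+ F4/80-, and neutrophils were Ly6G+ Ly6C+. Each of the 8 groups (4 populations on 2 days) had 2 libraries, each from 5 to 7 pooled mice, so that the spread between libraries is a spread between pools. As the 16 libraries came from 30 mice in all, populations of a day must have shared pools. Which libraries did is not stated. Cells of unoperated mice were not analysed here, and every comparison is between populations of operated knees or between the 2 days.

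IL-1alpha and IL-1beta bind the same receptor chain, IL-1R1, which then recruits the accessory chain IL-1RAP and signals through MyD88 and NF-kappaB. IL-1RA, the product of Il1rn, occupies IL-1R1 without signalling, and IL-1R2 is a decoy that binds IL-1 but has no signalling domain. IL-18 is a related cytokine that is matured by the same inflammasome caspase as IL-1beta, and IL-18BP is a secreted protein that neutralises it. Neutrophils and macrophages are major sources of IL-1 in injured tissue, where it recruits further myeloid cells and induces matrix-degrading enzymes.

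Il1a and Il1b lie next to each other on chromosome 2 of mm10, on the minus strand, at 129299610 to 129309972 and 129364570 to 129371139. Il1rn lies on the plus strand of the same chromosome at 24336853 to 24351494. Il1r2 (40074079 to 40125231) and Il1r1 (40225080 to 40317257) are neighbours on the plus strand of chromosome 1. Il1rap lies on chromosome 16 (26581704 to 26730117, plus strand), Il18 on chromosome 9 (50554827 to 50581840, plus strand) and Il18bp on chromosome 7 (102014885 to 102018690, minus strand).

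Il1a, Il1b and Il1rn were lower on day 14 in each population, by amounts that differed between the genes, as given below. The 250 bases before the first start of these 3 genes are shown. They are RefSeq sequences on GRCm38.p6, printed 5′ to 3′ on the strand of the gene, with matches to 5 motifs in capitals.

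Il1a (chr2:129309973-129310222, minus strand): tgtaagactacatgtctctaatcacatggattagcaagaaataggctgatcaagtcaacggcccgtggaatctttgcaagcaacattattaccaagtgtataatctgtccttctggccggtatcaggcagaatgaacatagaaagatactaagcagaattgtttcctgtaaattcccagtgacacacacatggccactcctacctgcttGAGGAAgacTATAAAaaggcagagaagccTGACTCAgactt
Il1b (chr2:129371140-129371389, minus strand): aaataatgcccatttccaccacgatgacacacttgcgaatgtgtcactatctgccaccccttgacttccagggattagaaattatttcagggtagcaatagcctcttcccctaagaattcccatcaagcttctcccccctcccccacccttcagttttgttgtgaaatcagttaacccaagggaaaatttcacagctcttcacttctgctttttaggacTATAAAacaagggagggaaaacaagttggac
Il1rn (chr2:24336610-24336859, plus strand): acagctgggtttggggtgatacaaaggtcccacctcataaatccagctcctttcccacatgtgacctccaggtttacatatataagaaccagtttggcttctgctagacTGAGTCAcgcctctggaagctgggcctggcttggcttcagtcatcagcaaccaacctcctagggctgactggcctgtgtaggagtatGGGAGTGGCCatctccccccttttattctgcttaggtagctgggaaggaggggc

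The letters searched, on both strands, were GGGA and CC with any 4 bases between them for NF-kappaB, TGANTCA for AP-1, TTGCNNAA for C/EBP, GAGGAA for PU.1 and TATAAA for a TATA box. In windows of 300 bases (250 before to 50 after the start), they were found in 20.7%, 7.81%, 10.8%, 28.3% and 13.6% of 32851 windows, respectively. The window of Il1a held a PU.1 match 41 bases, a TATA box 32 bases and an AP-1 match 12 bases before the start. Il1b held a TATA box 31 bases before its start and no match to the other 4 motifs in this window. Il1rn held an AP-1 match 141 bases and an NF-kappaB match 54 bases before its first start. The windows of its starts 2 and 3 held no match to either motif, and which start was used was not tested. A match is a description of letters and no measurement of binding, and no 2 matches within a window overlapped.

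Total counts per library were 10587857 to 19814119 on day 1 and 9233952 to 12721779 on day 14, so that 1 count was worth 0.0439 to 0.12 CPM, the unit of level used here (counts scaled to the library total times its TMM factor). In a sum over 10 macrophage and monocyte markers, CX3CR1+ macrophages had 3170 to 3980 CPM, CD9+ macrophages 2340 to 3070 on day 1 and 1430 to 2160 on day 14, and F4/80- cells 501 to 578. Neutrophils had 674 to 685 on day 1 and 203 to 207 on day 14. The sum over 10 neutrophil markers was 53800 to 89000 CPM on day 1 and 110000 to 116000 on day 14 in neutrophils. Over both days it was 33100 to 43500 in F4/80- cells, 5690 to 20500 in CD9+ macrophages and 506 to 1100 in CX3CR1+ macrophages. Within this list, the granule genes Camp, Ltf and Ngp were at 127%, 70% and 75.7% of the neutrophil level in F4/80- cells on day 1. In CD9+ macrophages of that day they were at 52.5%, 22% and 24%, but in CX3CR1+ macrophages at 0.133% to 0.411%. Mmp8 was at 4.82%, 2.57% and 7.02% in F4/80- cells, CD9+ and CX3CR1+ macrophages on day 1. Ly6g was at 8.04% in F4/80- cells and at 0.975% in CD9+ macrophages. Eosinophil markers summed to 529 to 596 CPM in CD9+ macrophages on day 1 and to 6350 to 10300 on day 14. Stromal markers went from 3.8 to 4.6 CPM on day 1 to 35 to 44 on day 14 in the same gate. Markers of basophils and mast cells summed to 720 to 1250 CPM in F4/80- cells and to 65.7 to 285 in CD9+ macrophages. Cd9 mRNA followed the gate within the macrophages. On day 1 CD9+ macrophages had 149 CPM in both libraries and CX3CR1+ macrophages 18.45 and 21.06. On day 14 they had 142.2 and 183.7 against 6.62 and 6.50 CPM. Neutrophils, which were not sorted on CD9, had more Cd9 mRNA than either (675 to 678 CPM on day 1). Cx3cr1 mRNA separated the 2 macrophage gates less. Its means on days 1 and 14 were 83.33 and 92.9 CPM in CD9+ and 140.5 and 272.7 CPM in CX3CR1+ macrophages. Per the methods, the rare cells positive for both CD9 and CX3CR1 were sorted with the CD9+ macrophages. The 2 libraries of CD9+ macrophages on day 1 were the least alike (Pearson correlation of log2 CPM across genes 0.935, against 0.976 to 0.988 in the other groups). In bulk samples such as these, fewer cells of a type and less RNA per cell cannot be told apart.

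**Figure D1:**
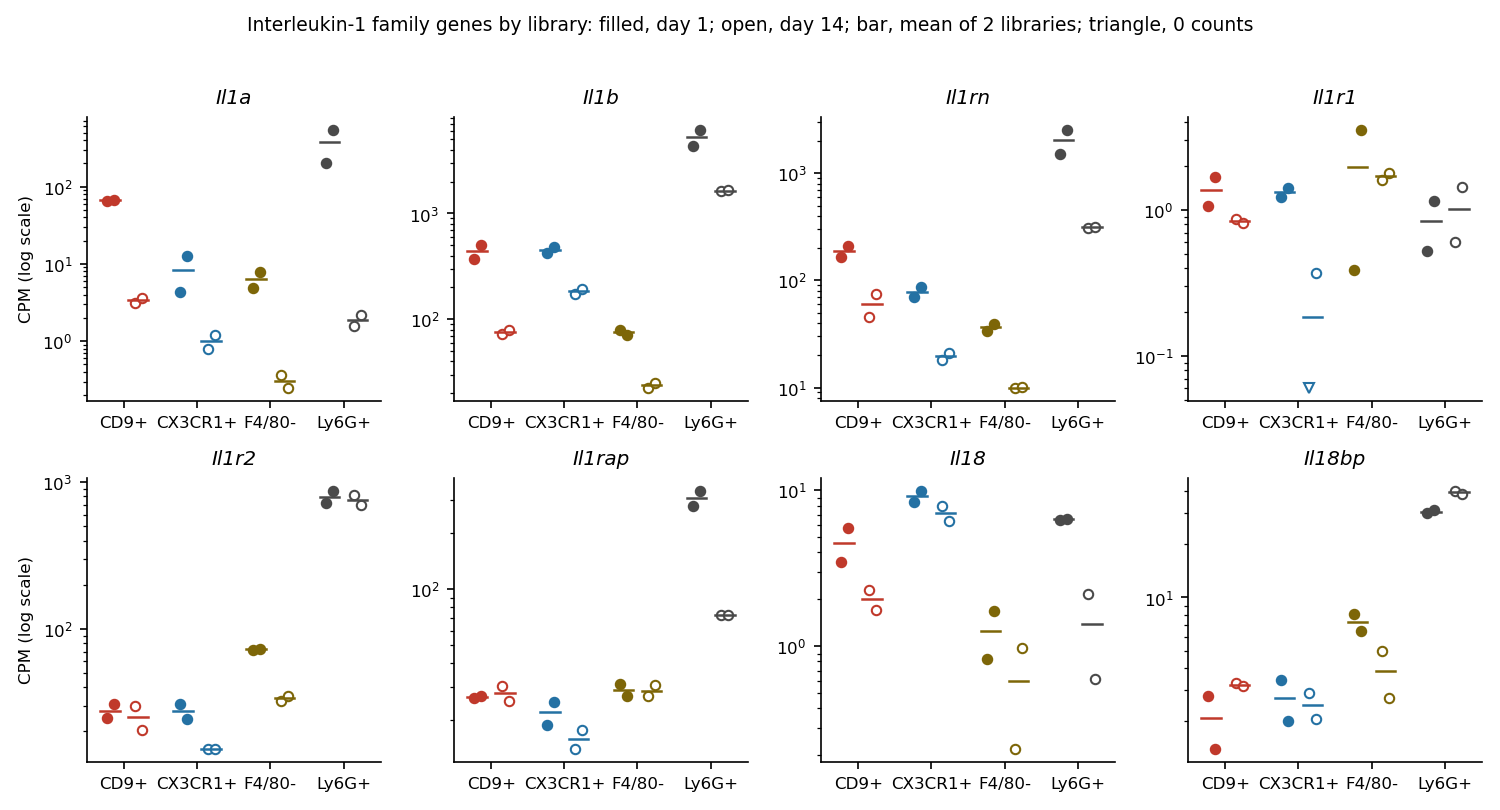
Level of each of the 8 genes in CPM (vertical axis, log scale, separate for each gene) in each library of the 4 sorted populations; filled points are day 1, open points day 14, and bars are means of 2 libraries. Il1b, Il1rn, Il1r2 and Il1rap were highest in Ly6G+ neutrophils on day 1, and Il1r1 stayed at or under a mean of 1.96 CPM in every group, with the triangle marking a library with 0 counts.

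Neutrophils held the highest levels of both IL-1 agonists on day 1, and Il1b, Il1a and Il1rn were lower on day 14 than on day 1 in all 4 populations. A gene was called when the quasi-likelihood test of edgeR, adjusted by Benjamini-Hochberg over the 11998 genes tested, gave an adjusted p under 0.05 with a log2 fold change of 1 or more in either direction. The SE printed with a log2 fold change of edgeR is approximate. It was derived as the absolute log2 fold change divided by the square root of the F statistic of the test. Of the 8 members, 7 passed the filter (a mean of at least 3 CPM in at least 1 group), Il1r1 being the exception. Over time, 3 of the 7 were called lower in CD9+ macrophages (3.48% of all genes tested were called lower, and 8.23% either way), the same 3 in CX3CR1+ macrophages (3.47% and 5.86%), 4 in F4/80- cells (2.24% and 3.25%) and 5 in neutrophils (10.9% and 14.1%). No member was called higher in these 4 comparisons by edgeR or DESeq2 (4.75%, 2.39%, 1.01% and 3.15% of all genes were in edgeR), nor at an unadjusted p under 0.05 in edgeR (0 of 7 in each). In the neutrophil gate the sum of macrophage markers was also lower and that of neutrophil markers higher on day 14, as given above. Their part in the changes of members and lists there was not tested. Comparisons below share libraries, for example the day 1 neutrophils in each contrast with that group.

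Il1b, the gene of IL-1beta, had 4363 and 6166 CPM in the 2 libraries of neutrophils on day 1 and 1623 and 1653 on day 14. The 2 days did not overlap, and the difference was 3.21-fold (log2 fold change -1.68, SE 0.18, adjusted p = 6.4e-06). Per kilobase of exon, Il1b ranked 19th and 14th of 20193 genes in these day 1 libraries and 44th in both day 14 libraries. CX3CR1+ macrophages had 419 and 480 CPM on day 1 and 175 and 192 on day 14, and CD9+ macrophages had 369 and 507, then 73.0 and 78.6. The day 1 levels of the 2 macrophage populations overlapped (log2 fold change of CD9+ against CX3CR1+ cells -0.04, SE 0.18, adjusted p = 0.92), whereas on day 14 the CD9+ libraries lay below the CX3CR1+ libraries (-1.28, SE 0.18, adjusted p = 8.5e-05). F4/80- cells had 80.1 and 70.9 CPM of Il1b on day 1, against 22.2 and 25.2 on day 14 (-1.67, SE 0.19, adjusted p = 9.6e-05). These were the lowest Il1b levels of each day, at 1.43% and 1.45% of the neutrophil mean on days 1 and 14.

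The decline of Il1b over time was steeper in CD9+ than in CX3CR1+ macrophages, at -2.53 (SE 0.19) against -1.29 (SE 0.18) on the log2 scale. The difference of the 2 changes was -1.24 (SE 0.25, adjusted p = 0.014), in a comparison in which 2.28% of all genes were called (0.933% lower), and Il1b was the only 1 of the 7 members called. The call was lost when replicate 2 of CD9+ macrophages on day 1 (-0.99, adjusted p = 0.024), replicate 1 of CD9+ macrophages on day 14 (-1.17, adjusted p = 0.063), replicate 1 of CX3CR1+ macrophages on day 1 (-1.13, adjusted p = 0.076) or replicate 2 of CX3CR1+ macrophages on day 14 (-1.16, adjusted p = 0.066) was left out. Eosinophil markers summed to more on day 14 in the CD9+ gate, as given above, and their part in the Il1b difference was not tested.

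Il1a, the gene of IL-1alpha, separated CD9+ from CX3CR1+ macrophages on day 1, whereas Il1b did not. Neutrophils had 202 and 542 CPM on day 1, CD9+ macrophages 65.4 and 67.7, CX3CR1+ macrophages 4.30 and 12.5 and F4/80- cells 4.93 and 7.88. The neutrophil libraries lay above both CD9+ libraries, these lay above those of the other 2 populations, and CX3CR1+ and F4/80- libraries overlapped. The 2 neutrophil libraries of day 1 themselves lay far apart, and the library with the lower Il1a had the higher sum of neutrophil markers (89000 against 53800 CPM). In CD9+ against CX3CR1+ macrophages on day 1, Il1a was higher by 2.999 on the log2 scale (SE 0.44, adjusted p = 0.00027). The CD9+ mean of day 1 stood at 17.9% of the neutrophil mean for Il1a and at 0.975% (Ly6g) to 52.5% (Camp) for the 10 neutrophil markers. Of these, Camp, Ngp (24%) and Ltf (22%) were above the share of Il1a. S100a9 (15.8%) and S100a8 (11.7%) were the next below it. Neutrophil markers summed to 18500 and 5690 CPM in the 2 CD9+ libraries of that day, in the order in which Il1a is given above. The part of neutrophil RNA in the Il1a level was not tested.

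By day 14 Il1a was at no more than 3.65 CPM in any library. It fell 197-fold in neutrophils, to 1.57 and 2.16 CPM (13 and 21 counts; log2 fold change -7.62, SE 0.58, adjusted p = 2.3e-07), and 19.8-fold in CD9+ macrophages, to 3.07 and 3.65 CPM (-4.31, SE 0.51). CX3CR1+ macrophages had 9 and 13 counts on day 14 (-3.06, SE 0.64, adjusted p = 0.0054) and F4/80- cells had 5 and 3 counts (-4.34, SE 0.79, adjusted p = 0.0041). The call in CX3CR1+ macrophages was lost without replicate 2 of day 1 (-2.12, adjusted p = 0.059) or replicate 1 of day 14 (-2.78, adjusted p = 0.071), and that in F4/80- cells without either library of day 14 (-4.66 and -4.09, adjusted p = 0.056 and 0.062). The decline in neutrophils exceeded the mean of the declines in the other 3 populations by 3.72 (SE 0.84, adjusted p = 0.0079; 8.49% of all genes were called, 7.15% lower), a call lost without replicate 1 of F4/80- cells on day 14 (-3.58, adjusted p = 0.075). On day 14, Il1a was highest in CD9+ macrophages, at 180% of the neutrophil mean, with both libraries above both of neutrophils, but the difference was not called (0.83, SE 0.70, adjusted p = 0.3).

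Counted per kilobase of exon, Il1a was a minor agonist transcript beside Il1b in every library. It stood at 17.1% and 12.9% of Il1b in CD9+ macrophages on day 1, at 4.48% and 8.48% in neutrophils, at 5.95% and 10.7% in F4/80- cells and at 0.993% and 2.51% in CX3CR1+ macrophages. On day 14 the share was 4.06% and 4.49% in CD9+ macrophages, 0.938% and 1.58% in F4/80- cells, 0.433% and 0.607% in CX3CR1+ macrophages and 0.0932% and 0.126% in neutrophils. In each population both day 14 libraries lay below both day 1 libraries, and CD9+ macrophages had the highest share on both days.

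**Figure D2:**
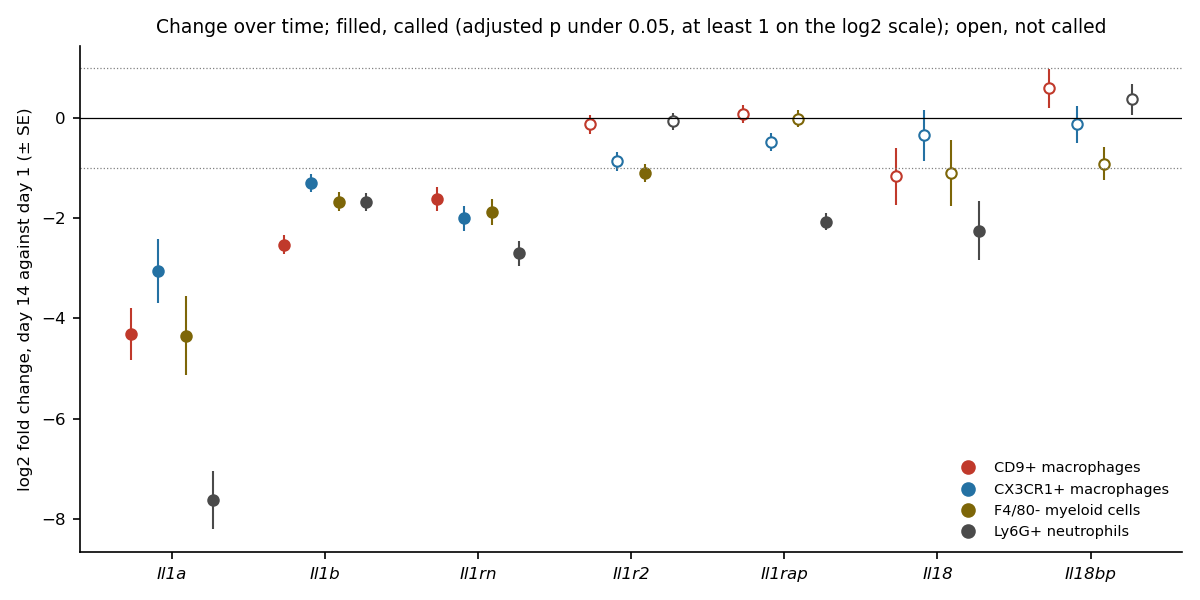
Log2 fold change of day 14 against day 1 (vertical axis, with SE) of the 7 genes tested in each sorted population; filled points were called and open points were not, and dotted lines mark a log2 fold change of 1 in either direction. Il1a, Il1b and Il1rn were called lower in all 4 populations, Il1r2 only in F4/80- cells, and Il1rap and Il18 only in neutrophils.

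Il1rn, which encodes the receptor antagonist, followed the same order on day 1 as its agonists in being highest in neutrophils, with 1528 and 2544 CPM. CD9+ macrophages came next with 165 and 209 CPM, then CX3CR1+ macrophages with 70.3 and 87.1 and F4/80- cells with 33.8 and 39.3. The libraries of these 4 groups did not overlap. On day 14 the levels were 311 and 315 CPM in neutrophils, 45.9 and 75.4 in CD9+ macrophages, 18.04 and 21.2 in CX3CR1+ macrophages and 9.82 and 10.04 in F4/80- cells, again without overlap.

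Over time Il1rn fell by 2.70 on the log2 scale in neutrophils (SE 0.25, adjusted p = 1.2e-06), by 2.01 in CX3CR1+ macrophages (SE 0.25, adjusted p = 9.6e-05), by 1.88 in F4/80- cells (SE 0.26, adjusted p = 0.00053) and by 1.62 in CD9+ macrophages (SE 0.24, adjusted p = 0.00041). In neutrophils the decline differed from the mean of the other 3 by -0.87 (SE 0.27, adjusted p = 0.045), under the threshold on size, though it was called without replicate 1 of neutrophils on day 1 (-1.19, adjusted p = 0.0061), and in CD9+ against CX3CR1+ macrophages the 2 declines differed by 0.38 (SE 0.34, adjusted p = 0.64). CD9+ macrophages had more Il1rn than CX3CR1+ macrophages on day 1 (1.25, SE 0.24, adjusted p = 0.0022) and on day 14 (1.63, SE 0.26, adjusted p = 0.00019). With scaling by library size only, the day 1 difference was 1.00 and fell just short of the threshold on size.

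The ratio of antagonist to agonist transcripts is given here as a description and was not tested. Il1rn per kilobase of exon was set against the sum of Il1a and Il1b in the same library, a ratio that needs no scaling between libraries. Exon length was the union of all annotated exons of a gene (5535 bases for Il1rn, 1974 for Il1a and 1907 for Il1b). The absolute size of the ratio depends on that choice. CD9+ macrophages had ratios of 0.131 and 0.126 on day 1, and of 0.208 and 0.317 on day 14. CX3CR1+ macrophages had 0.0573 and 0.0610 on day 1, then 0.0353 and 0.0377 on day 14, and neutrophils had 0.116 and 0.131, then 0.0659 and 0.0655. The later libraries were all above the earlier ones in CD9+ macrophages and all below them in CX3CR1+ macrophages and neutrophils. In F4/80- cells the 2 days differed by less than the day 1 spread (0.137 and 0.172 on day 1, 0.150 and 0.136 on day 14). On day 14 the mean ratio in CD9+ macrophages, 0.262 ± 0.0767 (SD, n = 2), stood against 0.0365 ± 0.00169 in CX3CR1+ macrophages, in a gate in which eosinophil markers had also become abundant, and their part in the ratio was not tested.

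**Figure D3:**
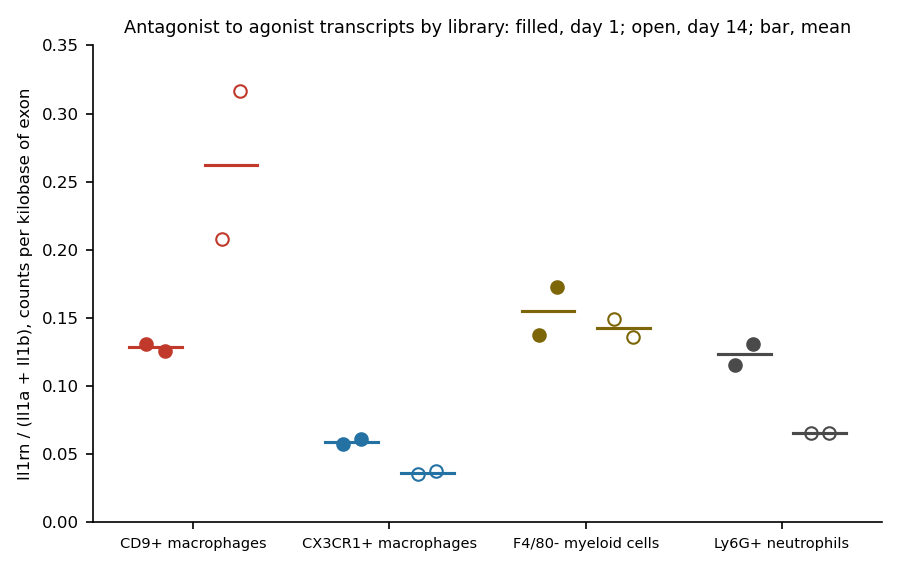
Ratio of Il1rn to the sum of Il1a and Il1b, each in counts per kilobase of exon (vertical axis, from 0), in each library of the 4 populations; filled points are day 1, open points day 14, and bars are means. CD9+ macrophages reached 0.208 and 0.317 on day 14, above every other library, whereas CX3CR1+ macrophages were lowest on both days.

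Il1r1, the signalling receptor, was scarcely detected in any population, with 0 to 77 counts per library and group means of 0.186 to 1.96 CPM. Its highest library, a replicate of F4/80- cells on day 1 with 77 counts (3.53 CPM), stood beside a second library of that group with 8 counts (0.390 CPM), and markers of stromal cells summed to 5.32 and 12.6 CPM in the 2. In CX3CR1+ macrophages on day 14, 1 library had 0 counts of Il1r1, which allows up to 0.261 CPM at 3 counts, a limit that covers counting error only. Tested without a filter, Il1r1 passed an adjusted p of 0.05 in no comparison over time in edgeR (adjusted p = 0.17 to 0.97), the largest change being that in CX3CR1+ macrophages (-2.79, SE 1.11, unadjusted p = 0.021). Its largest difference between populations in that fit was between CX3CR1+ macrophages and F4/80- cells on day 14 (-3.17, SE 1.12, adjusted p = 0.05).

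Il1r2, the decoy receptor, was by contrast a high transcript of neutrophils on both days. The neutrophil libraries had 716 and 872 CPM on day 1 and 816 and 696 on day 14, which overlapped (-0.07, SE 0.17, adjusted p = 0.79). F4/80- cells came second with 71.4 and 73.3 CPM on day 1 and 32.4 and 34.9 on day 14, a fall of 1.10 on the log2 scale (SE 0.18, adjusted p = 0.0017). Both days of CD9+ macrophages (24.5 and 30.8, then 29.9 and 20.5 CPM) and day 1 of CX3CR1+ macrophages (30.7 and 24.5) overlapped, and CX3CR1+ macrophages on day 14 were lowest at 15.3 and 15.0 CPM. The change in CX3CR1+ macrophages was -0.87 (SE 0.19, adjusted p = 0.0068), short of the threshold on size, and was called without replicate 2 of day 1 (-1.03, adjusted p = 0.01). Il1r2 per kilobase of exon exceeded Il1r1 by 1610- to 4547-fold in neutrophils, where Il1r1 had 5 to 14 counts per library. The excess was 57.8- to 610-fold in the other libraries with an Il1r1 count.

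Il1rap, the accessory chain that IL-1, IL-33 and IL-36 receptors share, changed over time in neutrophils. There it was at 278 and 335 CPM on day 1 and at 73.0 and 72.8 on day 14, without overlap (-2.07, SE 0.17, adjusted p = 4.8e-07). In CD9+ macrophages (26.2 and 26.9, then 30.4 and 25.2 CPM) and F4/80- cells (31.0 and 26.9, then 26.7 and 30.6 CPM) the days overlapped, with changes of 0.07 (SE 0.18) and -0.02 (SE 0.17). CX3CR1+ macrophages went from 18.8 and 24.98 CPM to 13.9 and 17.5 (-0.48, SE 0.18, adjusted p = 0.098). The change in neutrophils differed from the mean change in the other 3 populations by -1.93 (SE 0.20, adjusted p = 1.1e-05). Of the exons of Il1rap, 552 of 11360 bases overlap an antisense gene, Gm20319, and whether reads were counted by strand is not given in the sources used here. The same holds for 222 of 1974 bases of Il1a (Gm14023), 25 of 1907 of Il1b (Il1bos) and 80 of 3026 of Il18bp (Numa1).

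Il18 differed from the IL-1 genes in being highest in CX3CR1+ macrophages, with 8.39 and 9.93 CPM on day 1 and 7.93 and 6.40 on day 14. It was a low transcript throughout, with 3 to 191 counts per library. On day 1 it was not called in CX3CR1+ macrophages against neutrophils (log2 fold change 0.49, SE 0.51, adjusted p = 0.4). Nor was it called in CD9+ against CX3CR1+ macrophages on that day (-1.01, SE 0.52, adjusted p = 0.21). In neutrophils it went from 6.45 and 6.58 CPM to 2.17 and 0.617 (18 and 6 counts), a fall of 2.25 on the log2 scale (SE 0.59, adjusted p = 0.011) that was lost without replicate 2 of day 14 (-1.58, adjusted p = 0.13). On day 14 it was 5.23-fold higher in CX3CR1+ macrophages than in neutrophils (log2 fold change 2.39, SE 0.60, adjusted p = 0.0024). CX3CR1+ also exceeded F4/80- cells, by 2.85 on day 1 (SE 0.55, adjusted p = 0.00083) and 3.59 on day 14 (SE 0.64, adjusted p = 0.00036). Against CD9+ macrophages (3.46 and 5.70 CPM on day 1, 2.30 and 1.72 on day 14) the day 14 difference was called at 1.83 in favour of CX3CR1+ cells (adjusted p = 0.025), but not when any 1 of the 4 libraries was left out (adjusted p = 0.06 to 0.14).

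Il18bp was highest in neutrophils, at 30.2 and 31.2 CPM on day 1 and 40.2 and 38.8 on day 14. The binding protein and the cytokine it neutralises thus had their highest means in different populations. For Il18 on day 1, CX3CR1+ macrophages were not called above neutrophils, as given above. The difference between the days in neutrophils was not called (0.36, SE 0.30, adjusted p = 0.41). F4/80- cells had 8.05 and 6.46 CPM on day 1 and 4.94 and 2.69 on day 14, and the 8 macrophage libraries lay between 1.37 and 3.38 CPM. Per kilobase of exon, Il18bp stood to Il18 at 1.597 and 1.61 in neutrophils on day 1 and at 6.32 and 21.4 on day 14, where Il18 had only 18 and 6 counts. In CX3CR1+ macrophages this ratio was 0.0681 to 0.137 over both days.

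Against neutrophils of the same day, most members were lower in each other population, in comparisons in which 48% to 51% of all genes tested were called. On day 1, 6 of 7 were called lower in CD9+ macrophages (21.7% of all genes lower, 49.5% called either way), 6 in CX3CR1+ macrophages (24.1% and 51%) and all 7 in F4/80- cells (22.6% and 49%). On day 14, 5 were called lower in CD9+ macrophages (19.9% and 49.5%), 5 in CX3CR1+ macrophages (20.9% and 48%) and 6 in F4/80- cells (21.3% and 48.7%), while Il18 was called higher in CX3CR1+ macrophages (27.1% higher). The median log2 fold change of the 7 members was -3.53, -3.81 and -3.46 on day 1, then -2.37, -3.16 and -3.36 on day 14, in CD9+, CX3CR1+ and F4/80- cells, against 0.06, 0.00 and -0.02 and 0.12, 0.11 and 0.04 for all genes tested. The widest gap on day 1 was that of Il1b in F4/80- cells (-6.12, SE 0.22, adjusted p = 6.5e-11), and the narrowest was that of Il18 in CX3CR1+ macrophages (0.49, SE 0.51, adjusted p = 0.4). For Il1a in F4/80- cells on day 14, with 5 and 3 counts, the call (-2.58, SE 1.04, adjusted p = 0.038) was lost when any 1 of the 4 libraries was left out (adjusted p = 0.058 to 0.15), with scaling by library size only (-2.02, adjusted p = 0.092) and with upper quartile factors (-2.33, adjusted p = 0.056).

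**Figure D4:**
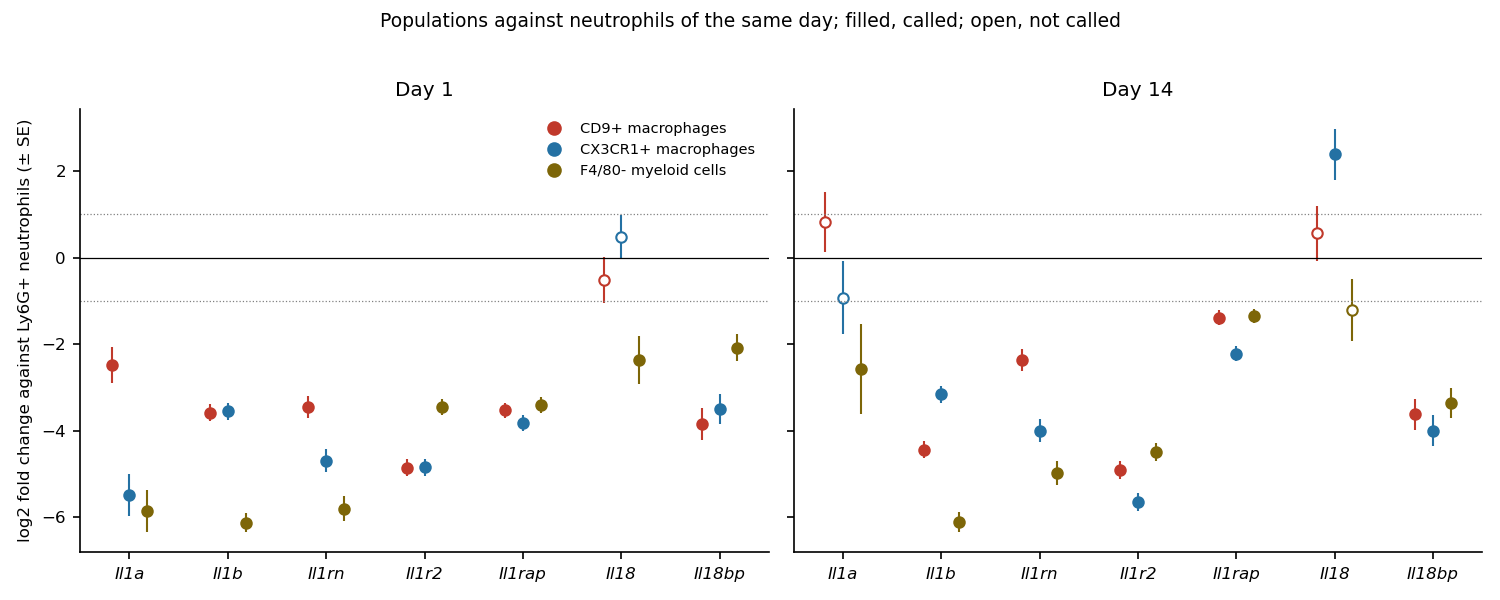
Log2 fold change of each population against Ly6G+ neutrophils of the same day (vertical axis, with SE), for the 7 genes tested; filled points were called, open points were not, and dotted lines mark a log2 fold change of 1 in either direction. Il1b, Il1rn, Il1r2, Il1rap and Il18bp were lower than in neutrophils in every population on both days, and Il18 was higher in CX3CR1+ macrophages on day 14.

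The 3 populations outside the neutrophil gate were also compared with each other. On day 1, CD9+ macrophages exceeded F4/80- cells in Il1a, Il1b, Il1rn and Il18 (3.37, 2.54, 2.35 and 1.84 on the log2 scale) and were below them in Il1r2 and Il18bp (-1.39 and -1.76), 6 of 7 called where 15.4% of all genes were (9.23% higher, 6.16% lower). The Il18 call was lost without replicate 2 of CD9+ macrophages (1.44, adjusted p = 0.096) or replicate 1 of F4/80- cells (1.39, adjusted p = 0.17). CX3CR1+ macrophages differed from F4/80- cells in the same directions for Il1b (2.57), Il1rn (1.10), Il18, Il1r2 (-1.39) and Il18bp (-1.42) but not by a call for Il1a (0.37, adjusted p = 0.55), 5 of 7 called where 21.1% of all genes were (10.2% higher, 10.9% lower). Of these, Il1rn dropped under the threshold on size without replicate 2 of CX3CR1+ macrophages (0.95) or replicate 1 of F4/80- cells (1.00), and Il18bp lost its call without that CX3CR1+ replicate (-1.09, adjusted p = 0.056).

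On day 14, CD9+ macrophages exceeded F4/80- cells in Il1a (3.41), Il1b (1.68) and Il1rn (2.61), 3 of 7 called where 7.7% of all genes were (6.59% higher), and the Il1a call was lost when any 1 of the 4 libraries was left out (adjusted p = 0.053 to 0.14). Neither Il1r2 (-0.42, adjusted p = 0.17) nor Il18bp (-0.26, adjusted p = 0.74) was called there. CX3CR1+ macrophages exceeded F4/80- cells in Il1b (2.95) and Il18 and were below them in Il1r2 (-1.15, SE 0.19, adjusted p = 0.0002), 3 of 7 called where 21.5% of all genes were (11.1% higher, 10.4% lower). Within the macrophages, CD9+ against CX3CR1+ cells differed in 2 of 7 members on day 1 (Il1a and Il1rn higher; 8.23% of all genes called, 6.36% higher) and in 3 on day 14 (Il1rn higher, Il1b and Il18 lower; 14.2%, with 9.65% higher and 4.55% lower). Il1a was 3.07 and 3.65 CPM in CD9+ and 0.784 and 1.21 in CX3CR1+ macrophages on day 14, a difference that was not called (1.75, SE 0.75, adjusted p = 0.1) but was with a replicate block nested in day (1.75, SE 0.51, adjusted p = 0.02). In F4/80- cells, the change over time did not differ by a call from the mean of the 2 macrophage populations for any of the 7 members in edgeR (0.85% of all genes were called) or DESeq2, and 2 of the 7 had an unadjusted p under 0.05 in edgeR.

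The other genes of the pathway were taken from 4 lists, which the comparisons over time describe. Of 6 further IL-1 family genes tested, Il1f9, the gene of the agonist IL-36gamma, was called lower on day 14 in each of the 4 populations. It was highest in neutrophils, at 443 and 610 CPM on day 1 and 261 and 233 on day 14 (-1.09, SE 0.23, adjusted p = 0.0029), and this fall was under the threshold on size without replicate 2 of day 1 (-0.84, adjusted p = 0.039). In CD9+ macrophages the call (-1.39, SE 0.32, adjusted p = 0.0079) was lost without replicate 1 of day 1 (-0.96, adjusted p = 0.064) or replicate 2 of day 14 (-1.12, adjusted p = 0.087). The largest fold was in CX3CR1+ macrophages, from 9.36 and 5.64 CPM to 0.349 and 0.186, the last being 4 and 2 counts (-4.76, SE 0.52, adjusted p = 2.5e-05). Il18rap, the accessory chain of the IL-18 receptor, rose in CD9+ macrophages from 61.7 and 50.9 to 117 and 114 CPM (1.04, SE 0.13, adjusted p = 8.6e-05; 0.91 without replicate 2 of day 1) and fell in CX3CR1+ macrophages from 17.96 and 19.1 to 4.27 and 3.34 (-2.28, SE 0.16, adjusted p = 5.5e-07). The 2 changes differed by 3.31 (SE 0.21, adjusted p = 9.5e-07). Il1rl1, the IL-33 receptor, also rose in CD9+ macrophages, from 7.64 and 7.39 to 17.8 and 19.97 CPM (1.33, SE 0.35, adjusted p = 0.018), a call lost without either library of day 14 (adjusted p = 0.064 and 0.084). Both receptors are also made by basophils and mast cells. Their markers summed to 65.7 to 136 CPM in the same gate on day 1 and to 225 to 285 CPM on day 14, alongside the eosinophil markers. Il18rap was also called lower in CD9+ macrophages than in neutrophils on both days. Neutrophil markers summed to 5690 to 18500 CPM in the CD9+ gate on day 1 and to 13700 to 20500 on day 14. The part of all these cells was not tested. Il1rl2, the IL-36 receptor chain, fell in neutrophils (-1.32, SE 0.40, adjusted p = 0.022), though not without replicate 2 of day 1 (-0.81, adjusted p = 0.21) or replicate 1 of day 14 (-1.03, adjusted p = 0.17). Il18r1, called higher in CX3CR1+ macrophages, rested on 0 and 0 against 1 and 8 counts.

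Among 23 genes for the maturation and release of IL-1 and IL-18, 11 were called lower on day 14 in neutrophils, where 10.9% of all genes tested were lower. They included Mefv, the gene of pyrin (-3.30, SE 0.20), P2rx7, the ATP receptor that triggers inflammasomes (-2.94, SE 0.32), and Capn2, a calpain (-2.78, SE 0.29). The median of the 23 was -0.96, against -0.01 for all genes. In CD9+ macrophages 3 were lower (3.48% of all genes) and 1, Elane, was higher. Nlrp3, the inflammasome sensor, went there from 129 and 248.6 CPM to 70.3 and 57.6 (-1.56, SE 0.28, adjusted p = 0.0015), whereas in CX3CR1+ macrophages it was at 172 and 183, then 216 and 191 CPM, and the 2 changes differed by -1.76 (SE 0.38, adjusted p = 0.021). The call on that difference was lost without any 1 of both CD9+ libraries of day 14 and the 4 CX3CR1+ libraries (adjusted p = 0.052 to 0.099). Nlrc4 (-1.38) and Nlrp1b (-1.19) were the other inflammasome sensors called lower in CD9+ cells. In this gate the sum of macrophage and monocyte markers was lower and that of eosinophil markers higher on day 14, as given above. The part of this in the falls of the sensors was not tested. Elane, a granule protease of neutrophil precursors, had group means of 150 and 336 CPM on days 1 and 14 in CD9+ macrophages (1.16, SE 0.38, adjusted p = 0.049; 0.2 without replicate 2 of day 1, 0.38 without replicate 1 of day 14 and 0.087 by DESeq2), where the sum of neutrophil markers was 5690 to 18500 and 13700 to 20500 CPM. In CX3CR1+ macrophages and F4/80- cells edgeR called 0 of the 23, with 5 and 3, respectively, at an unadjusted p under 0.05, and DESeq2 called 0 in both.

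Of 28 genes of the receptor's signal chain, 8 were called lower in neutrophils on day 14 (10.9% of all genes tested). Elsewhere 1 was lower in CD9+ macrophages (3.48%) and 1 lower in CX3CR1+ macrophages (3.47%), shares near those of all genes. In F4/80- cells 1 was higher (1.01%). Nfkbia, the inhibitor of NF-kappaB (-3.46, SE 0.28), Tnfaip3, the deubiquitinase A20 (-3.17, SE 0.28), and Map3k8, the kinase upstream of ERK (-2.63, SE 0.17), had the largest falls in neutrophils. Tnfaip3 moved the other way in F4/80- cells, with group means of 197 CPM on day 1 and 489 on day 14 (1.31, SE 0.26, adjusted p = 0.0077), a call lost without either day 1 library or replicate 1 of day 14 (adjusted p = 0.067 to 0.083). Irak2, a kinase of the receptor complex, was the 1 gene lower in CD9+ macrophages (-1.04, SE 0.21, adjusted p = 0.0041), but its change was only -0.62 without replicate 2 of day 1, -0.96 without replicate 2 of day 14, -0.82 with library size only and -0.98 with upper quartile factors. Nfkbia was that in CX3CR1+ macrophages (-1.29, SE 0.26, adjusted p = 0.0042). The median of the 28 was -0.42 in neutrophils and between -0.11 and 0.14 in the other populations.

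Known target genes of IL-1 and NF-kappaB were lower in larger numbers, although many are also induced by other signals. Of 20 tested, 14 were called lower on day 14 in neutrophils (10.9% of all genes), 7 in CD9+ macrophages (3.48%), 7 in CX3CR1+ macrophages (3.47%) and 6 in F4/80- cells (2.24%). The neutrophil chemoattractants Cxcl1, Cxcl2 and Cxcl3 and the acute-phase gene Saa3 were called lower in each population. For Cxcl1, whose highest library had 42.0 CPM, the call outside neutrophils was lost when 1 of several libraries was left out (adjusted p = 0.069 to 0.16), namely replicate 2 of day 1 or either day 14 library in CD9+ macrophages, replicate 2 of day 1 or replicate 1 of day 14 in CX3CR1+ macrophages, and either day 14 library in F4/80- cells. Cxcl3 went from 1235 and 2428 CPM to 6.14 and 7.10 in neutrophils (-8.11, SE 0.52, adjusted p = 4e-08) and from 490 and 718 to 17.7 and 34.2 in CD9+ macrophages (-4.54, SE 0.43, adjusted p = 1e-05). In CX3CR1+ macrophages it went from 81.7 and 153 CPM to 2 and 3 counts. Il6 and Vcam1 went the other way in CD9+ macrophages. Il6, the gene of interleukin-6, rose from 2.76 and 4.33 to 17.9 and 15.7 CPM there (2.28, SE 0.30, adjusted p = 0.00018), and in F4/80- cells from 54.2 and 62.2 to 133 and 122 (1.13, SE 0.25, adjusted p = 0.013), where the call was lost without any 1 of the 4 libraries (adjusted p = 0.067 to 0.15). Vcam1, an adhesion molecule, had group means of 16.3 and 190 CPM on days 1 and 14 in CD9+ macrophages (3.53, SE 0.36, adjusted p = 1.7e-05). Sums of stromal markers (3.8 to 4.6, then 35 to 44 CPM) and eosinophil markers (529 to 596, then 6350 to 10300 CPM) were higher on day 14 in that gate. Markers of basophils and mast cells also summed to more on day 14 there (65.7 to 136, then 225 to 285 CPM). In F4/80- cells they went from 720 to 849 CPM on day 1 to 1190 to 1250 on day 14. The part of all these cells in Il6 and Vcam1 was not tested. Mmp9, a gelatinase of the target list, fell in F4/80- cells (-3.69, SE 0.50, adjusted p = 0.00042).

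**Figure D5:**
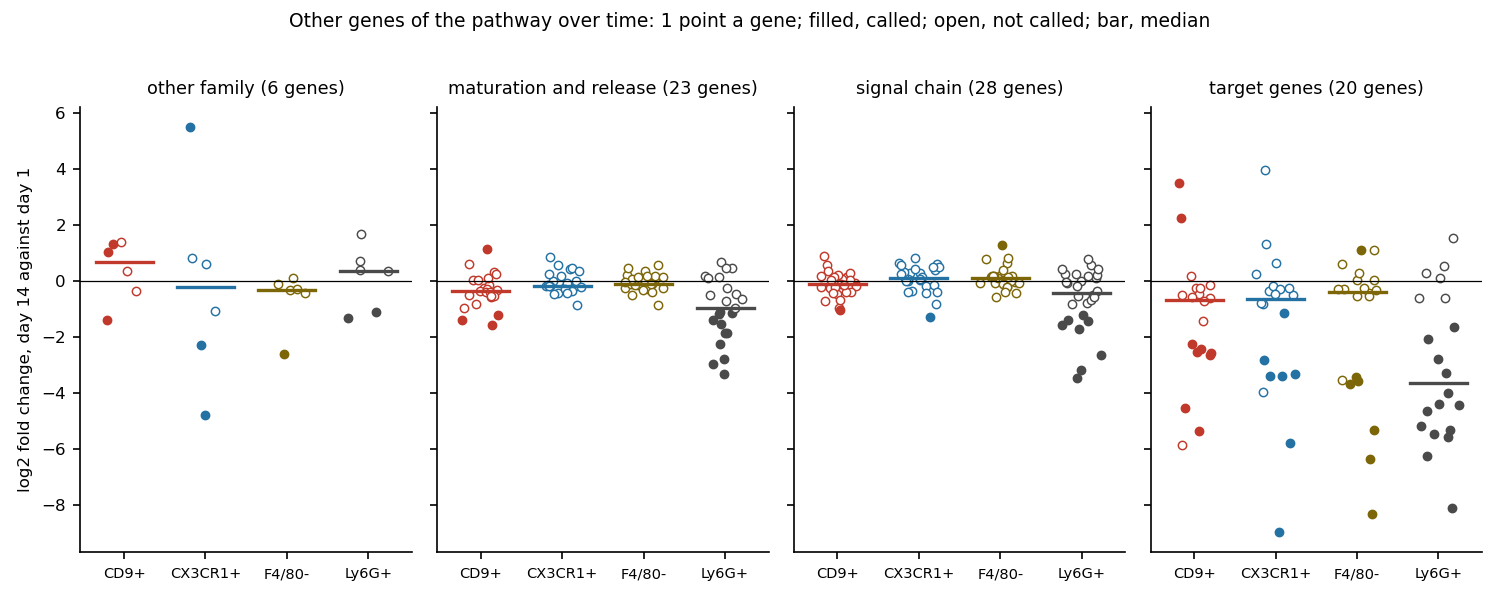
Log2 fold change of day 14 against day 1 (vertical axis) of each tested gene of 4 lists in each sorted population; each point is a gene, filled points were called and bars are medians of the list. In Ly6G+ neutrophils the maturation and target lists had medians of -0.96 and -3.64, with 11 of 23 and 14 of 20 genes called lower.

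Across the 16 libraries, the members also differed in which genes followed them, described by the Pearson correlation of log2 CPM, which rests on points that share populations and depth. The nearest pattern to Il1b was that of Clec4e, a C-type lectin of activated myeloid cells (0.99), followed by Gsap and Cers2. Il1a was nearest to Bnip3, a hypoxia-induced gene of mitochondrial turnover (0.972), then Adgb and Pfkl, a glycolytic enzyme. Il1rn followed Nek6, Blcap and Slc7a11, the cystine transporter (0.973, 0.973 and 0.972). Il1r2 was nearest to Siglece (0.991), Tirap (0.991) and H2-Q10 (0.988), Il1rap to Tnf (0.971), Zfp608 and Spata13, and Il18bp to Cd33 (0.981), 4933408B17Rik and Clk4. For Il18 the highest values were lower, with Fam71a at 0.934, Gpr35 at 0.924 and Soat1 at 0.919. Among the members themselves, Il1r2 and Il18bp were closest (0.964), then Il1b and Il1rn (0.928), while Il18 was at -0.218 to Il18bp and -0.109 to Il1r2.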

How the data were processed

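Per the methods, SMART-Seq Stranded libraries of sorted cells were sequenced in pairs, trimmed with Cutadapt, aligned to mm10 with STAR and counted over exons of a Gencode annotation. The authors deposited raw counts per gene for 20200 genes without normalization, and the smallest total of a gene over the 16 libraries was 17 counts. Counts came from reads without molecular identifiers, so intervals and limits cover counting error only. No 2 libraries held identical values.

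Here, genes with a group mean of at least 3 CPM in at least 1 of 8 groups were kept (11998) and TMM factors computed on them. All 16 libraries entered 1 edgeR (4.0.16, R 4.3.3) quasi-likelihood model with a mean per group and no covariate. Calls were made at an adjusted p (Benjamini-Hochberg) under 0.05 with a change of 1 or more on the log2 scale, in either direction. CPM use these factors, and log2 CPM a prior count of 2. Exon lengths (the union of all annotated exons of a gene) and positions were taken from a neighbouring Gencode release of the same build. It had a length for 20193 of the 20200 genes. Each of the 8 members matched the RefSeq promoter table, with 11 windows. Figures and tables were made with Python 3.11.15, pandas 2.3.3 and matplotlib 3.10.9.

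The members, the 4 lists, the marker lists and the tests were chosen with earlier results of these data known. Named were all members, the 3 genes nearest to each tested member in pattern and, from each list, up to 3 called genes with the largest and up to 3 with the smallest log2 fold change over time whose libraries did not overlap. Mmp9, and Cxcl2 and Nlrp3 in some populations, were named beyond this after their values were seen. Alternatives were DESeq2 (1.42.0), scaling by library size only or by upper quartiles, no filter, filterByExpr, a replicate block nested in day, and leaving out each library, which were applied to the genes of the lists only after the data had been seen. The steps were tested on simulated counts. Single-cell data were not analysed here.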

Additional observations from a re-analysis of the deposited data

Results flagged for a closer look

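The change over time differed between populations for 3 members, by a test of the difference itself. Il1a fell further in neutrophils than in the mean of the other 3 populations, by -3.72 on the log2 scale, and so did Il1rap, by -1.93. Il1b fell further in CD9+ than in CX3CR1+ macrophages, by -1.24. As given above, the calls of Il1a and Il1b were each lost when certain single libraries were left out.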

How the results depend on the processing

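The 133 log2 fold changes of members (76 called) were recomputed under 6 alternatives, which gave 798 values. Of these, 787 kept direction and call, 5 lost the call, 3 gained it and 3 changed sign. Leaving out 1 library gave 700 values, of which 639 kept both, 27 lost the call, 6 gained it and 28 changed sign, and a group left with 1 library was assumed to vary like the others. Scaling by library size only moved the median of all genes by up to 0.609 and upper quartile factors by up to 0.306, in comparisons with neutrophils, and 30 of 64 levels moved by more than 1 SD with library size only. For genes of the 4 lists, an addition made after seeing the data, 14 of 684 values under the 6 alternatives and 155 of 852 with 1 library left out lost a call, and 0 changed sign. The cause of the changes was not tested, and low counts limit Il1a on day 14, Il1r1 and Il18.

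Signs changed for Il1r2 over time in CD9+ macrophages with library size only (0.076) and for Il1rap over time in F4/80- cells without a filter (0.0096) or with filterByExpr (0.0061), none of them called. With library size only, 1 member was called in CD9+ against CX3CR1+ macrophages on day 1, and Il1rap against neutrophils on day 14 was -0.89 in CD9+ macrophages and -0.78 in F4/80- cells. DESeq2 called 439 genes for the difference of changes between CD9+ and CX3CR1+ macrophages (273 in edgeR) and 226 for that of F4/80- cells (102), and it called Il1a in CD9+ against CX3CR1+ macrophages (1.77) and Il18 in CD9+ macrophages against F4/80- cells (1.74) on day 14. The ratio of Il1rn to Il1b alone in CD9+ macrophages on day 1 was 0.148, against 0.129 with Il1a included.

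Leaving out each library in turn, changes over time ranged from -0.41 to 0.12 for Il1r2 and -0.056 to 0.20 for Il1rap in CD9+ macrophages, from -0.46 to 0.31 for Il18bp in CX3CR1+ macrophages, from -0.10 to 0.10 for Il1rap in F4/80- cells and from -0.21 to 0.078 for Il1r2 in neutrophils. In CD9+ against CX3CR1+ macrophages on day 1 they ranged from -0.28 to 0.17 for Il1b, -0.18 to 0.16 for Il1r2 and -0.97 to 0.089 for Il18bp. Il1a in CX3CR1+ macrophages against F4/80- cells on day 1 ranged from -0.57 to 0.96. In CD9+ macrophages on day 14, Il1rap (-0.20 to 0.061) and Il18bp (-0.65 to 0.23) against F4/80- cells and Il18 against neutrophils (-0.10 to 1.69) did likewise. Of the differences of changes, Il1rn between CD9+ and CX3CR1+ macrophages ranged from -0.011 to 0.72, Il1rn and Il18 of F4/80- cells from -0.22 to 0.14 and from -1.72 to 0.39, and Il1b of neutrophils from -0.081 to 0.42. Members called ranged from 3 to 5 in CX3CR1+ macrophages against F4/80- cells on day 1, and for the differences of changes from 0 to 1 between CD9+ and CX3CR1+ macrophages and from 1 to 3 for neutrophils. All genes called over time ranged from 571 to 1734 in CD9+ macrophages (988 with every library), 432 to 523 in CX3CR1+ macrophages (703) and 174 to 257 in F4/80- cells (390). In CD9+ macrophages against F4/80- cells on day 14 they ranged from 536 to 948 (924), and for the differences of changes from 123 to 905 (CD9+ and CX3CR1+ macrophages), 19 to 338 (F4/80- cells) and 674 to 1321 (neutrophils).

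Libraries of a day that share a replicate number deviated from their group means with correlations of 0.0132 to 0.144 over 12 pairs of groups, and no source states that a number marks a shared pool, so the numbers were not taken to pair the samples. With a replicate block in the model, nested in day, Il1a in CD9+ against CX3CR1+ macrophages on day 14 was called (1.75, adjusted p = 0.02 in edgeR), and no other call of a member changed.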
